A study of Mus musculus with 13 samples.

Results

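Neutrophils are the white blood cells that enter inflamed tissue first, and a chemokine axis built on the receptor CXCR2 draws them there. The expression of 8 genes of this system was followed in CD45+ cells of irradiated CT26 tumors. The genes were taken by name as S100a8 and S100a9 (secreted calcium-binding alarmins), Csf3r, Trem1 and Cxcr2 (receptors of neutrophils) and Cxcl1, Cxcl3 and Ppbp (ligands of CXCR2). They are 8 of the 547 endogenous genes counted on the NanoString nCounter mouse immunology panel, which counts RNA molecules with barcoded probes and without amplification.

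CT26 is a colon carcinoma line of BALB/c mice that was grown under the skin of 6-week-old female BALB/c mice. Tumors received 7.5 Gy × 1 (a single dose), 2 Gy × 5 (a fractionated course of 5 doses) or 0 Gy (no irradiation). Cells were taken at 4 phases counted from the start of radiotherapy (RT), called T2, T7, T14 and T21 for days 2, 7, 14 and 21, and once before it (PreRT). Each of the 13 conditions is 1 sample of magnetically isolated CD45+ cells. Groups had 3 mice each, and whether their cells were pooled into the 1 sample is not stated in the methods. The T2 sample of 2 Gy × 5 was taken during the course, before all of its doses had been given. With no replicate of any condition, single-sample ratios below carry intervals for counting error only, and tests use the spread left across phases and arms. In such bulk samples, fewer cells of a type and less RNA per cell cannot be told apart.

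CXCR2 is the receptor through which CXC chemokines with an ELR motif, among them CXCL1, CXCL3 and PPBP (CXCL7), move neutrophils out of the marrow and into tissue. G-CSF, acting on the receptor encoded by Csf3r, drives their production and release. S100A8 and S100A9 form the heterodimer calprotectin, which is abundant in the cytosol of neutrophils and also present in monocytes, and TREM1 is a surface receptor that amplifies inflammatory signals in both cell types. In mouse tumors, cells with these genes include mature neutrophils and the granulocytic myeloid-derived suppressor cells (MDSCs), which share most of their transcripts.

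Of the 8 genes, the ligand genes Cxcl1, Cxcl3 and Ppbp lie on chromosome 5, S100a8 and S100a9 on chromosome 3, Csf3r on 4, Trem1 on 17 and Cxcr2 on 1. The sequences upstream of Cxcl1 and Cxcl3 are shown because these ligand genes moved apart in the data below. Each is the 250 bases before the annotated start, 5′ to 3′ on the gene's strand (RefSeq, GRCm38.p6), with motif matches in capitals.
Cxcl1, chr5:90890995-90891244, plus strand: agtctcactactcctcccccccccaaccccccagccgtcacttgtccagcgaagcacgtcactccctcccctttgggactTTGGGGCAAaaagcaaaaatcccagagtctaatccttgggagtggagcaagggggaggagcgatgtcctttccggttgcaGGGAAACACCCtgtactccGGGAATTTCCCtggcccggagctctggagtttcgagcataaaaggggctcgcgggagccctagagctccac
Cxcl3, chr5:90785851-90786100, plus strand: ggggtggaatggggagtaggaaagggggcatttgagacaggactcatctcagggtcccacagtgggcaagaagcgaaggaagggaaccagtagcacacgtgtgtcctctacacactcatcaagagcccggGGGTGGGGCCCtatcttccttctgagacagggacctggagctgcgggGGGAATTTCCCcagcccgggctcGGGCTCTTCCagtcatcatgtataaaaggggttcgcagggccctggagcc
The motifs searched on both strands were GGG and CC with any 5 bases between them for NF-kB, and TTGCNNNAA for C/EBP, and where matches overlap, 1 capital run covers them. The longest stretch that both sequences share is the 11 bases GGGAATTTCCC, whose first base lies at -71 in Cxcl1 and at -73 in Cxcl3, and which holds an NF-kB match on each strand. The Cxcl1 sequence also held a C/EBP match, on the minus strand at -170, and Cxcl3 held none. In the window of 250 bases before to 50 after the start, Csf3r and Cxcr2 held NF-kB matches and Csf3r a C/EBP match, whereas S100a8, S100a9, Trem1 and Ppbp held neither motif. Of 32851 mouse promoters of this length, 50.8% held the NF-kB letters and 9.56% the C/EBP letters, so a match is common and describes the sequence only.

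Total counts per sample ranged between 166307 and 675847 (median 241239), with the highest total in the T14 sample of 2 Gy × 5. The column headers place the samples in 3 runs, and the 3 arms of T2, T7 and T21 each shared a run. At T14, the 7.5 Gy × 1 and 0 Gy samples were in 1 run and the 2 Gy × 5 sample in another, so at T14 the 2 Gy × 5 arm and the run cannot be told apart. The leukocyte label was checked with 7 pan-leukocyte genes. Their summed normalized level was 684 to 1007 at T2, 2587 to 4910 at T7, 1848 to 2717 at T14 and 567 to 2142 at T21, against 1336 before RT. Ptprc, the gene of CD45 itself, was detected in every sample, at 199.6 normalized counts in the T21 sample of 0 Gy and up to 1873 in the T7 sample of 2 Gy × 5. Genes of CD45-negative cells (9 tested genes listed for stroma and endothelium) had sums of 6737 to 11216 at T2, 3129 to 5040 in later samples and 7822 before RT. The geometric means of these 9 genes did not separate the phases, with 130 to 243 at T2, 119 to 226 in later samples and 226 before RT. Fn1, which macrophages also express, made up 6901 of the 11216 in the T2 sample of 7.5 Gy × 1. Pecam1, another of the 9, is also in the list of neutrophil adhesion genes used below, so the 9 genes are not exclusive to CD45-negative cells. Granule genes of immature neutrophils were near the limit of the assay: Ltf and Camp did not exceed the background of the negative controls in any of the 13 samples, and Ctsg did not in 10 of 13. The platelet genes Itga2b and Gp1bb were each at background in 12 of 13 samples.

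**Figure D1:**
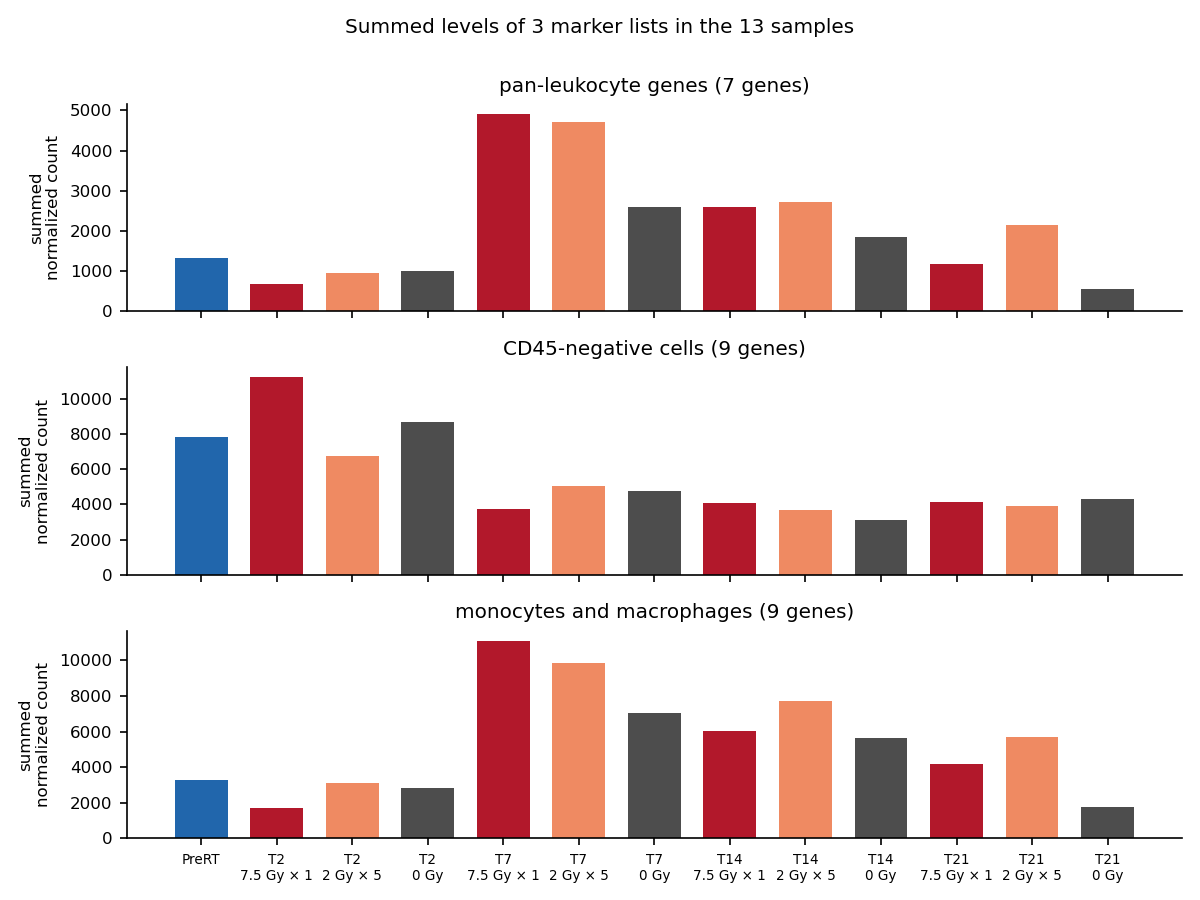
Summed normalized counts (linear axis) of 7 pan-leukocyte genes, 9 genes of CD45-negative cells and 9 monocyte and macrophage genes at PreRT, T2, T7, T14 and T21, with 1 bar per sample colored by arm. Pan-leukocyte sums reach 4910 at T7 and lie at or below 1007 at T2, while the CD45-negative sums are 6737 or more at T2 and 5040 or less at T7 and later.

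S100a8 and S100a9 were the members with the highest levels, and both were low before RT and in T2 tumors without fractionated RT. S100a8 had 383, 18138, 2520 and 4760 normalized counts at T2, T7, T14 and T21 after 7.5 Gy × 1. It had 2786, 6646, 19310 and 7220 after 2 Gy × 5, against 680, 5597, 4729 and 1729 at 0 Gy and 413 before RT. The level therefore peaked at T7 after 7.5 Gy × 1 and at T14 after 2 Gy × 5. S100a9, its partner in calprotectin, had 232, 29787, 6045 and 9503 normalized counts at the 4 phases after 7.5 Gy × 1. It had 5015, 11709, 31693 and 16486 after 2 Gy × 5, against 967, 10738, 8098 and 3423 at 0 Gy and 499 before RT. The same samples were high for both genes. At T2 the 3 arms were ordered alike for both, with 2 Gy × 5 highest and 7.5 Gy × 1 lowest. Ranked by level, every neighboring pair of samples of S100a9 was separated by its counting interval. For S100a8 this failed only for the T21 7.5 Gy × 1 and T14 0 Gy samples, and for the PreRT and T2 7.5 Gy × 1 samples.

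The share of all endogenous counts that S100a8 and S100a9 took together was smallest in the T2 sample of 7.5 Gy × 1. It was 0.297% there (Wilson 95% interval 0.276 to 0.320%) and 0.473% before RT (0.439 to 0.510%). It was highest in the T14 sample of 2 Gy × 5, at 16.1% (16 to 16.2%), followed by 11.9% in the T7 sample of 7.5 Gy × 1 (11.8 to 12%). In the 0 Gy arm the share stayed between 0.904% at T2 and 6.44% at T7.

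The 3 receptor genes followed the S100 genes at much lower counts. Csf3r, the G-CSF receptor, had 70.1, 1343, 439 and 396 normalized counts at T2, T7, T14 and T21 after 7.5 Gy × 1. It had 219, 989, 1084 and 1036 after 2 Gy × 5, against 117, 692, 460 and 173 at 0 Gy and 95.2 before RT. After 2 Gy × 5 the level was thus high at T7 and held there through T21. These 3 samples followed each other in rank, and neighbors in rank were not separated by counting error. The T14 level was just separated from that of T7 (1.10-fold, 1.002 to 1.20). Trem1 had 50.4, 826, 284 and 224 normalized counts after 7.5 Gy × 1. It had 271, 616, 639 and 475 after 2 Gy × 5, against 121, 457, 273 and 83.6 at 0 Gy and 95.2 before RT. Its lowest level was again that of the T2 sample of 7.5 Gy × 1. Cxcr2, the chemokine receptor itself, had 358, 89.9 and 72.0 normalized counts at T7, T14 and T21 after 7.5 Gy × 1, and at T2 its 6 raw counts did not exceed background. It had 47.2, 172, 316 and 234 after 2 Gy × 5, against 18.4, 126, 84.8 and 32.4 at 0 Gy and 17.2 before RT. Its highest levels, in the T7 sample of 7.5 Gy × 1 and the T14 sample of 2 Gy × 5, were not separated by counting error. Cxcr1, the other receptor of this chemokine family, exceeded background in only 3 of 13 samples.

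The CXCR2 ligands did not share 1 pattern. Cxcl1, which leukocytes and many other cells of a tumor can make, was highest at T2 and had 4025, 2225, 1122 and 745 normalized counts at T2, T7, T14 and T21 after 7.5 Gy × 1. It had 4141, 1811, 2562 and 1131 after 2 Gy × 5, against 2674, 2128, 1201 and 790 at 0 Gy and 2128 before RT. The irradiated T2 samples had the highest levels of the series and were not separated from each other. Cxcl3, a myeloid ligand of the same receptor, ran later and had 56.4, 344, 403 and 405 normalized counts after 7.5 Gy × 1. It had 230, 84.6, 798 and 848 after 2 Gy × 5, against 123, 156, 397 and 162 at 0 Gy and 97.9 before RT. Cxcl3 was thus highest in the late samples of 2 Gy × 5. Ppbp, a chemokine stored in platelets, stayed between 6.83 and 47.8 normalized counts, was at background in 5 of 13 samples, and no neighboring pair of its ranked levels was separated by counting error.

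**Figure D2:**
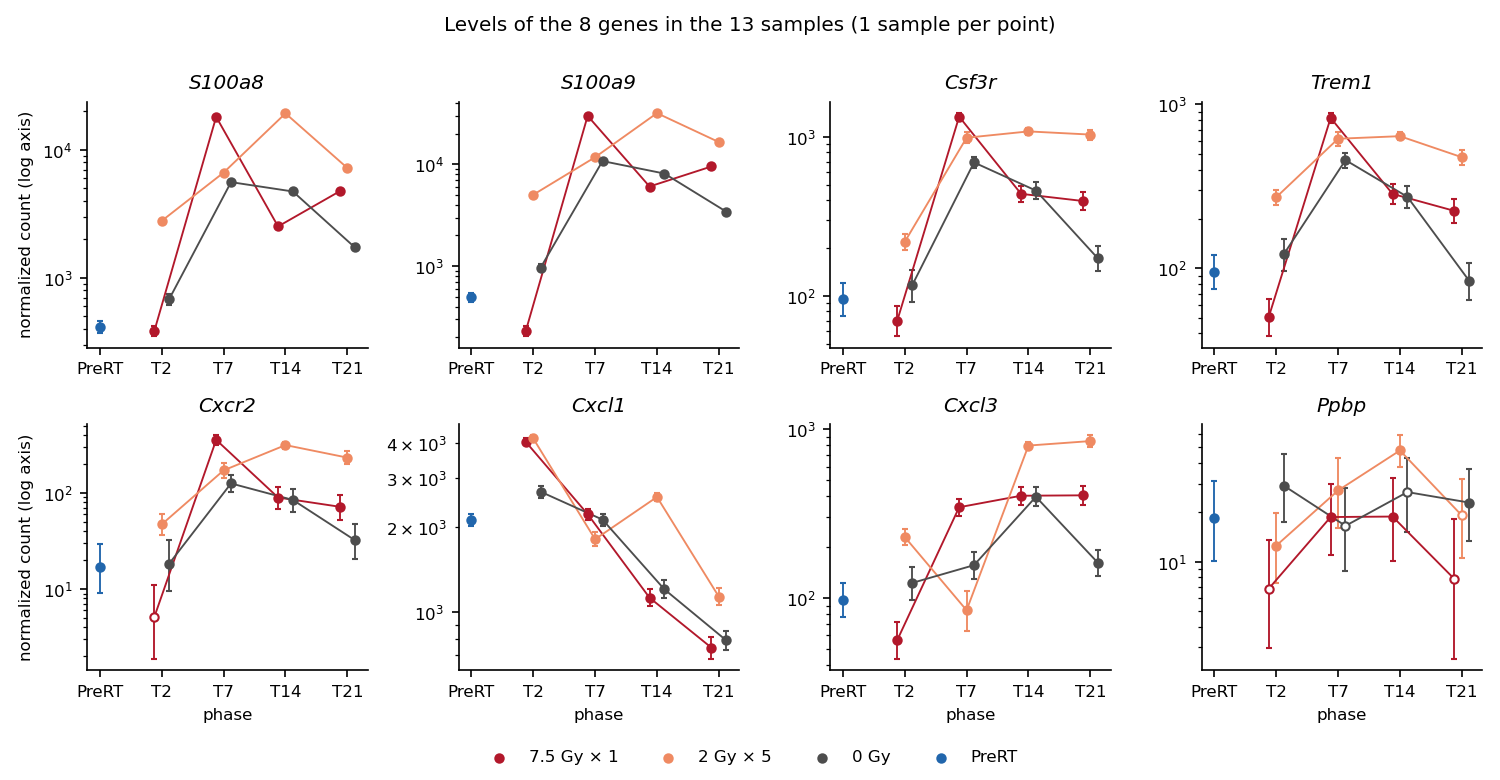
Normalized counts (log axis) of each of the 8 genes at PreRT, T2, T7, T14 and T21, 1 point per sample, joined by arm, with bars for the 95% counting interval and open points for counts at background. S100a8, S100a9, Csf3r, Trem1 and Cxcr2 are highest in the T7 sample of 7.5 Gy × 1 or the T14 sample of 2 Gy × 5, Cxcl1 is highest in the irradiated T2 samples (4025 and 4141) and Cxcl3 in the T21 sample of 2 Gy × 5 (848).

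To ask what each schedule did at each phase, an irradiated sample was set against the 0 Gy sample of its phase. At T2 the schedules differed in direction for most members. After 7.5 Gy × 1, 5 of 8 members were at least 2-fold lower than at 0 Gy and none was at least 2-fold higher, against 17.1% lower and 3.61% higher of the 415 genes tested. S100a9 was 4.18-fold lower (95% counting interval 3.62 to 4.83), the 4th lowest ratio of all genes tested. Trem1 was 2.40-fold lower (1.69 to 3.43) and Cxcl3 2.18-fold lower (1.55 to 3.06). Cxcr2 was at least 1.82-fold lower and Ppbp at least 2.87-fold lower, each a bound because the irradiated sample was at background (the count of 5 uses their measured values). The median log2 ratio of the 8 members was -1.19, where that of all genes was -0.01. S100a8 was 1.78-fold lower (1.55 to 2.03) and Csf3r 1.66-fold lower (1.20 to 2.30), but on a scale set by the pan-leukocyte genes their log2 ratios were -0.07 and 0.02. Cxcl1 alone was higher, by 1.51-fold (1.42 to 1.59). The pan-leukocyte sum was 684 in this sample, against 1007 at 0 Gy, and that of CD45-negative genes was 11216, against 8687 (geometric means of 226 and 243). Pan-leukocyte scaling shifted the median ratio of all genes by 0.76 on the log2 scale, and the part of these marker genes in the member ratios was not tested.

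After 2 Gy × 5 at T2, 4 of 8 members were at least 2-fold higher than at 0 Gy and 1 was lower (2.65% and 5.54% of the genes tested). S100a9 was 5.19-fold higher (4.78 to 5.64) and S100a8 4.10-fold higher (3.71 to 4.53), which placed them first and next in the ranking of all 415 genes. Cxcr2 was 2.56-fold higher (1.38 to 5.21) and Trem1 2.23-fold higher (1.75 to 2.88). The alarmin genes thus headed the panel in this sample, and the member median was 1.03 on the log2 scale, against -0.01 over all genes. The pan-leukocyte sum was 946, against 1007 at 0 Gy, and under all 5 other scalings and treatments of low counts S100a8 and S100a9 stayed at least 2-fold higher. Csf3r was 1.88-fold higher (1.46 to 2.44), Cxcl3 1.87-fold higher (1.46 to 2.42) and Cxcl1 1.55-fold higher (1.47 to 1.63). Ppbp was 2.33-fold lower (1.16 to 4.71).

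At T7 the order of the schedules was the other way round, and on the deposited scale the neutrophil genes were highest after 7.5 Gy × 1. In that sample 4 of 8 members were at least 2-fold higher than at 0 Gy and none was lower, where 22.2% of the genes tested were higher and 1.69% lower. S100a8 was 3.24-fold higher (3.13 to 3.35), Cxcr2 2.84-fold (2.26 to 3.59), S100a9 2.77-fold (2.71 to 2.84) and Cxcl3 2.20-fold (1.78 to 2.74). Csf3r was 1.94-fold higher (1.75 to 2.15) and Trem1 1.81-fold (1.59 to 2.06), but on the pan-leukocyte scale both were lower, with log2 ratios of -0.11 and -0.21. The irradiated sample had 1704 normalized counts of Ptprc, against 1100 at 0 Gy, and a pan-leukocyte sum of 4910, against 2587, and scaling by the pan-leukocyte genes shifted the median of all genes by -1.06 on the log2 scale. The member median was 1.05, where that of all genes was 0.48. Cxcl1 did not differ beyond counting error (1.05-fold, 0.98 to 1.12).

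After 2 Gy × 5 at T7, no member was at least 2-fold higher or lower than at 0 Gy on the deposited scale, although 19.3% of the genes tested were higher and 1.69% lower. The member median was 0.34 on the log2 scale, where that of all genes was 0.42. The neutrophil genes were 1.09-fold (S100a9) to 1.43-fold (Csf3r) higher on the deposited scale, and all 5 were lower on the pan-leukocyte scale, with log2 ratios of -0.55 to -0.94. Cxcl3 was 1.85-fold lower (1.34 to 2.58), the 8th lowest ratio of the 415 genes. Its log2 ratio was -0.89 on the deposited scale and passed a 2-fold difference under median-of-ratios (-1.31), total-count (-1.34) and pan-leukocyte (-1.95) scaling, and with background subtracted (-1.11). Cxcl1 did so on the pan-leukocyte scale (-1.29).

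At T14, 7.5 Gy × 1 left no member at least 2-fold higher or lower than at 0 Gy on the deposited scale (11.8% and 0.723% of the genes tested). S100a8 was 1.88-fold lower (1.77 to 1.99), the 6th lowest ratio of all genes, and was more than 2-fold lower by median-of-ratios, total-count and pan-leukocyte scaling (log2 ratios of -1.20, -1.15 and -1.41). S100a9 was 1.34-fold lower (1.29 to 1.40). On the deposited scale, the 3 receptors, Cxcl1 and Cxcl3 did not differ beyond counting error, with ratios between 0.934 and 1.06. By median-of-ratios, total-count and pan-leukocyte scaling their log2 ratios were all below 0, down to -0.57 for Csf3r and -0.60 for Cxcl1. The T14 sample of 2 Gy × 5, from the other run, had 7 of 8 members at least 2-fold higher than at 0 Gy and none lower (15.9% and 6.51% of the genes tested), with a member median of 1.23 on the log2 scale, where that of all genes was 0.35. S100a8 was 4.08-fold higher (3.93 to 4.24), S100a9 3.91-fold (3.8 to 4.03) and Cxcr2 3.72-fold (2.79 to 5.06). Csf3r, Trem1, Cxcl1 and Cxcl3 were 2.01-fold to 2.36-fold higher. Under scaling by total counts or by pan-leukocyte genes, 3 members kept a 2-fold difference, S100a8, S100a9 and Cxcr2.

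At T21, the phase of tumor progression, both schedules had higher neutrophil genes than 0 Gy. At 0 Gy these genes were lower than at T14 on the deposited scale. The member median was 1.26 on the log2 scale after 7.5 Gy × 1 and 2.33 after 2 Gy × 5, where those of all genes were 0.21 and 0.71. After 2 Gy × 5, 6 of 8 members were at least 2-fold higher and none was lower (35.2% and 0.482% of the genes tested). Cxcr2 was 7.22-fold higher (4.69 to 11.6), Csf3r 6-fold (4.97 to 7.29) and Trem1 5.69-fold (4.33 to 7.58). Cxcl3 was 5.24-fold higher (4.31 to 6.43), S100a9 4.82-fold (4.61 to 5.03) and S100a8 4.18-fold (3.93 to 4.44). After 7.5 Gy × 1, 6 members were at least 2-fold higher and Ppbp at least 2.09-fold lower (14% and 2.41% of the genes tested). The 6 ratios lay between 2.22-fold for Cxcr2 (1.33 to 3.81) and 2.78-fold for S100a9 (2.65 to 2.91). Cxcl1 was 1.43-fold higher after 2 Gy × 5 on the deposited scale (1.29 to 1.59) but lower under scaling by the median of ratios (log2 ratio -0.20), total counts (-0.24) or pan-leukocyte genes (-1.25). Its ratio after 7.5 Gy × 1 of 0.942 did not differ from 1 beyond counting error on the deposited scale (0.833 to 1.06). By the same 3 scalings its log2 ratios there were -0.36, -0.45 and -1.02.

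Leukocyte genes as a whole moved the same way at T21, and their part in these ratios was not tested. The pan-leukocyte sum was 1190 after 7.5 Gy × 1 and 2142 after 2 Gy × 5, against 567 at 0 Gy, and the monocyte and macrophage sum was 4156 and 5698, against 1780. Scaled to the pan-leukocyte genes, the log2 ratios after 2 Gy × 5 were 0.29 for S100a8, 0.50 for S100a9, 0.82 for Csf3r, 0.74 for Trem1 and 1.08 for Cxcr2, all still positive. On that scale the median ratio of all genes shifted by -1.77 on the log2 scale. The log2 ratios of the 5 neutrophil genes after 7.5 Gy × 1 were 0.22 to 0.54 on the same scale. In the T21 sample of 0 Gy, 3 of the 7 pan-leukocyte genes were at background, against 0 in both irradiated T21 samples. At T21 this scale therefore rests partly on background counts.

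**Figure D3:**
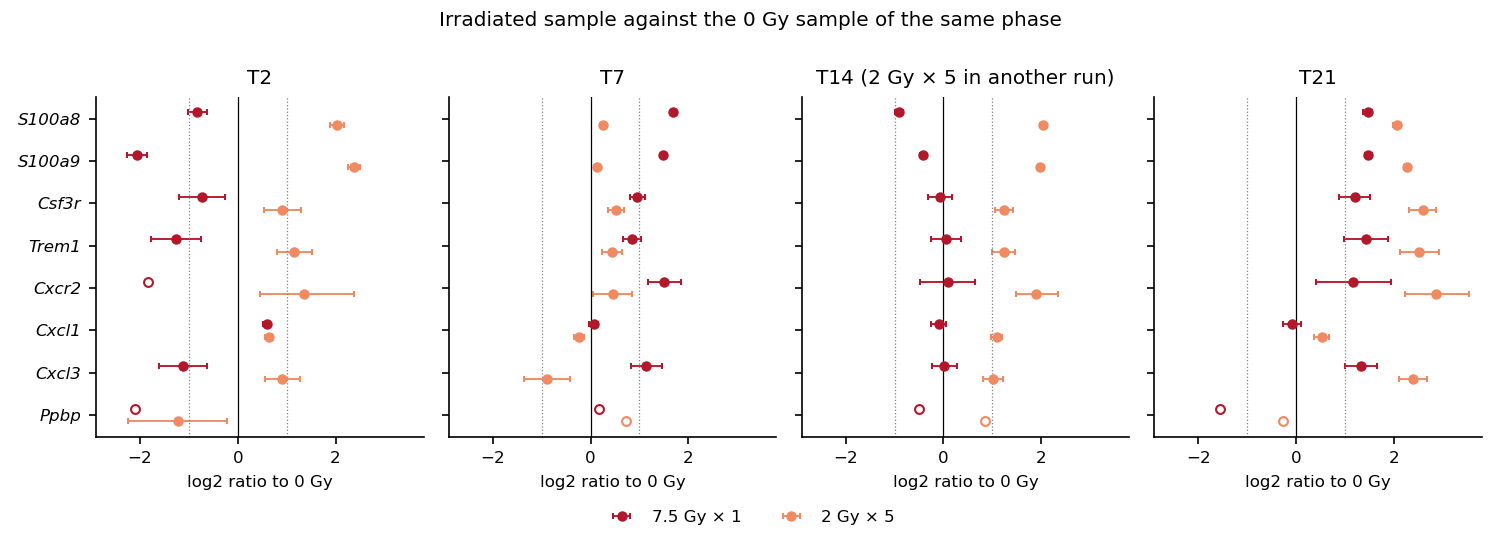
Log2 ratio of each gene in each irradiated sample (7.5 Gy × 1 or 2 Gy × 5) to the 0 Gy sample of that phase, on the deposited normalization, with 95% counting intervals, dotted lines at a 2-fold difference and open points where a count was at background. At T2 most points of 7.5 Gy × 1 lie below 0 and most of 2 Gy × 5 above it, and at T21 both arms lie above 0 for the 5 neutrophil genes. On the pan-leukocyte scale the T7 values of Csf3r, Trem1 and Cxcl1 after 7.5 Gy × 1, those of all 5 neutrophil genes after 2 Gy × 5 and the T21 value of Cxcl1 after 2 Gy × 5 lie below 0, and the T2 value of Csf3r after 7.5 Gy × 1 is 0.02.

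Set directly against each other at T2, S100a9 was 21.7-fold lower after 7.5 Gy × 1 than after 2 Gy × 5 (19.2 to 24.5), the lowest ratio of the 415 genes. S100a8 was 7.28-fold lower (6.60 to 8.04), and 6 of 8 members were at least 2-fold lower and none higher, where 14.2% of the genes tested were lower and 4.34% higher. Cxcl1 was 1.03-fold lower on the deposited scale, with an interval that included no difference (0.990 to 1.07). At T7 the order was turned, and 4 members were at least 2-fold higher after 7.5 Gy × 1 (3.61% of the genes tested). Cxcl3 was 4.07-fold higher (3.06 to 5.51), the highest ratio of all 415 genes, followed among members by S100a8 at 2.73-fold. At T14, 7 members were at least 2-fold lower on the deposited scale (9.88% of the genes tested) across different runs, with Cxcl3 just under that size (1.98-fold lower, 1.74 to 2.26). At T21, 5 members were at least 2-fold lower (18.6% of the genes tested), among them Cxcr2 at 3.25-fold and Csf3r at 2.62-fold, with both counts of Ppbp at background. The median ratio of all genes was itself -0.45 on the log2 scale there, and pan-leukocyte scaling shifted it by 0.83.

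Relative to the PreRT sample, S100a9 and S100a8 were the 2 highest ratios of all 415 genes in the T2 sample of 2 Gy × 5, in all 3 arms at T7, at T14 after 2 Gy × 5 and in both irradiated arms at T21. S100a9 was 63.6-fold higher in the T14 sample of 2 Gy × 5 than before RT (57.4 to 70.5) and 59.7-fold higher in the T7 sample of 7.5 Gy × 1. S100a8 was 46.8-fold and 44.0-fold higher in these samples. At T7, 6 of 8 members were at least 2-fold higher than before RT after 7.5 Gy × 1, 5 after 2 Gy × 5 and 5 at 0 Gy, where 41.7%, 37.6% and 19% of the genes tested were higher and 5.54%, 3.61% and 6.02% lower. At T14 these counts were 6, 7 and 6 (20.5%, 21.2% and 13.3% higher, and 8.19%, 8.19% and 15.2% lower). At T21, 6 members were higher and 2 lower after 7.5 Gy × 1 (8.92% and 25.3%), 6 higher and none lower after 2 Gy × 5 (18.1% and 12.3%), and 2 higher and 1 lower at 0 Gy (5.06% and 38.1%). Cxcl1 was the member below its PreRT level in every arm at T21, by 2.86-fold after 7.5 Gy × 1 and 1.88-fold after 2 Gy × 5, against 2.69-fold at 0 Gy. The PreRT sample was in another run than all samples after T2, so time and run cannot be told apart in these ratios. At T2, within the run of the PreRT sample, 6 members were at least 2-fold higher after 2 Gy × 5 and none was lower (2.41% and 12% of the genes tested), while at 0 Gy none was higher or lower (0.723% and 5.78%). The T2 sample of 7.5 Gy × 1 had 3 members at least 2-fold lower than before RT by measured value and none higher (25.1% and 2.65%). Of these, S100a9 was 2.15-fold lower (1.84 to 2.53), while Cxcr2 and Ppbp were at background and have only bounds, at least 1.70-fold and 1.83-fold lower. All these ratios share the 1 PreRT sample.

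Some phases can be compared inside 1 run, here on the deposited scale. In the 2 Gy × 5 arm, the T14 and T7 samples were both in the first run. Cxcl3 was 9.44-fold higher at T14 than at T7 (7.22 to 12.6), S100a8 2.91-fold (2.82 to 3), S100a9 2.71-fold (2.64 to 2.77) and Cxcr2 1.83-fold (1.5 to 2.26). Csf3r (1.10-fold, 1.00 to 1.20) and Trem1 (1.04-fold, 0.925 to 1.16) were nearly level, so the neutrophil genes did not move as 1 block over this interval. Between T21 and T14, also inside 1 run, the 0 Gy arm had lower levels of every member except Ppbp, for which the T14 count was at background. Trem1 was 3.26-fold lower, S100a8 2.74-fold, Csf3r 2.67-fold, Cxcr2 2.62-fold, Cxcl3 2.45-fold and S100a9 2.37-fold. The median log2 ratio of all genes to PreRT was -0.12 at T14 and -0.71 at T21 in this arm. On the pan-leukocyte scale, which rests partly on background counts at T21, log2 ratios to PreRT were 3.31 and 3.48 for S100a8. They were 3.81 and 4.20 for S100a9, 2.06 and 2.27 for Csf3r, 2.09 and 2.33 for Cxcr2 and 1.30 and 1.23 for Trem1. By median-of-ratios and total-count scaling, the neutrophil genes stayed lower at T21 than at T14. In the 7.5 Gy × 1 arm over the same interval, S100a8 was 1.89-fold higher (1.78 to 2.00) and S100a9 1.57-fold higher (1.51 to 1.64). Csf3r, Cxcr2 and Cxcl3 did not differ there beyond counting error, Trem1 was 1.27-fold lower and Cxcl1 was 1.51-fold lower, close to the 1.52-fold of the 0 Gy arm.

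To test the schedules over the whole course, edgeR's quasi-likelihood model with terms for phase and arm was fitted to the raw counts of the 12 samples after the start of RT, with Benjamini-Hochberg adjustment over 415 genes. It left 6 residual degrees of freedom and a biological coefficient of variation of 28.6%. No member passed an adjusted p of 0.05 for 2 Gy × 5 against 0 Gy, nor did any other gene (0% called, with 70 genes and 5 members under an unadjusted p of 0.05). The 5 neutrophil genes nevertheless had estimates among the top 20 of 415. The log2 fold change was 1.62 ± 0.62 for S100a9 (SE, adjusted p = 0.174 by edgeR), 1.49 ± 0.55 for S100a8 (adjusted p = 0.156 by edgeR) and 1.43 ± 0.46 for Cxcr2 (adjusted p = 0.0922 by edgeR). It was 1.00 ± 0.36 for Trem1 and 0.98 ± 0.31 for Csf3r, with adjusted p = 0.145 and 0.0922 by edgeR. Without the T14 sample of 2 Gy × 5, which left each phase with arms of 1 run only, these estimates were 1.39 for S100a9, 1.06 for S100a8, 1.21 for Cxcr2, 0.95 for Trem1 and 0.90 for Csf3r. DESeq2 on the same counts called 40 genes, among them Csf3r (adjusted p = 0.0120) and Trem1 (adjusted p = 0.0216). For the ligands, edgeR gave 0.70 ± 0.45 for Cxcl3, 0.16 ± 0.30 for Cxcl1 and -0.30 ± 0.36 for Ppbp.

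For 7.5 Gy × 1 against 0 Gy, edgeR called 5 genes (1.2%), and none of the 8 members was among them. Log2 fold changes were 0.44 ± 0.55 for S100a8, 0.31 ± 0.62 for S100a9, 0.38 ± 0.46 for Cxcr2, 0.17 ± 0.31 for Csf3r and 0.14 ± 0.36 for Trem1. All 5 estimates changed sign when a single phase was left out, T7 for S100a8 and Cxcr2 (-0.036 and -0.042), T21 for Csf3r (-0.054) and Trem1 (-0.17), and either one for S100a9 (-0.15 without T7). Ppbp had the lowest member estimate, -1.17 ± 0.40 (adjusted p = 0.230 by edgeR), Cxcl1 had -0.10 ± 0.30 and Cxcl3 0.24 ± 0.45. For 7.5 Gy × 1 against 2 Gy × 5, 0% of genes were called by edgeR (26 genes under an unadjusted p of 0.05, 4 of them members). The estimate was -1.32 for S100a9, -1.06 for Cxcr2, -1.05 for S100a8, -0.87 for Trem1 and -0.82 for Csf3r.

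Between phases, the same model called most members. At T7 against T2, where 53.3% of all genes were called, Csf3r rose by 2.27 ± 0.37 on the log2 scale (adjusted p = 0.000853 by edgeR), Cxcr2 by 2.76 ± 0.56 (adjusted p = 0.00197 by edgeR) and Trem1 by 1.56 ± 0.42 (adjusted p = 0.00714 by edgeR). S100a9 rose by 3.02 ± 0.79, the highest estimate of all 415 genes, and S100a8 by 2.66 ± 0.68, with adjusted p = 0.00610 and 0.00549 by edgeR. Cxcl1 fell by 1.56 on the log2 scale (adjusted p = 0.00302 by edgeR), while Cxcl3 (-0.08) and Ppbp (-0.20) were not called. At T14 against T2 (44.8% of genes called), the 5 neutrophil genes were called higher again, with 2.76 for S100a9, 2.47 for S100a8, 2.46 for Cxcr2, 1.96 for Csf3r and 1.17 for Trem1. Cxcl3 now rose as well, by 1.66 ± 0.51 (adjusted p = 0.0180 by edgeR), and Cxcl1 fell by 1.54 (adjusted p = 0.00442 by edgeR). At T21 against T2 (23.9% of genes called), S100a9 rose by 2.71, Cxcr2 by 2.21, S100a8 by 2.14, Csf3r by 1.91 and Cxcl3 by 1.76, Cxcl1 fell by 1.92, and Trem1 (0.86, adjusted p = 0.136 by edgeR) was not called. At T21 against T14, edgeR called 5.54% of genes and 0 members, none of which was under an unadjusted p of 0.05. By DESeq2, 97 genes were called there.

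All T2 samples were in 1 run and no other sample of the model was in it, so for every contrast with T2 the phase and the run cannot be told apart. Leukocyte markers moved between these phases too. At T7 against T2, 5 of 7 pan-leukocyte genes were called higher and 6 of 9 CD45-negative genes lower (27.2% and 26% of all genes). The summed normalized level of the monocyte and macrophage genes was 1680 to 3118 at T2 and 7041 to 11109 at T7. The part of these markers in the member changes was not tested. Csf3r kept its calls when any 1 arm was left out, and so did Cxcl1 except at T14 without 7.5 Gy × 1 (adjusted p = 0.0747 by edgeR). Without the 0 Gy arm, adjusted p by edgeR passed 0.05 for S100a8 at every phase (0.0648 at T7, 0.0967 at T14, 0.147 at T21) and likewise for S100a9 (0.0792, 0.101, 0.123), as it did for Trem1 at T14 (0.113), Cxcl3 at T14 and T21 (0.103 and 0.0899) and Cxcr2 at T21 (0.0649). Without the 7.5 Gy × 1 arm it passed 0.05 for Trem1 at T7 and T14 (0.0843 and 0.0908), Cxcl3 at T14 and T21 (0.0514 and 0.0911) and S100a8 at T21 (0.0574). Without the T14 sample of 2 Gy × 5 alone it passed 0.05 at T14 for S100a8 (0.0620), S100a9 (0.0503), Trem1 (0.0926) and Cxcl3 (0.0692). The direction of all these changes was kept. At T21 the calls of S100a8 and Cxcl3 were also lost with limma on the normalized values (adjusted p = 0.0505 and 0.0800) and with housekeeping factors in edgeR (adjusted p = 0.0690 and 0.0759). Cxcl1 lost its T7 call with housekeeping factors in edgeR (adjusted p = 0.0549), and Trem1 its T14 call in edgeR without a filter on low counts (adjusted p = 0.0739).

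**Figure D4:**
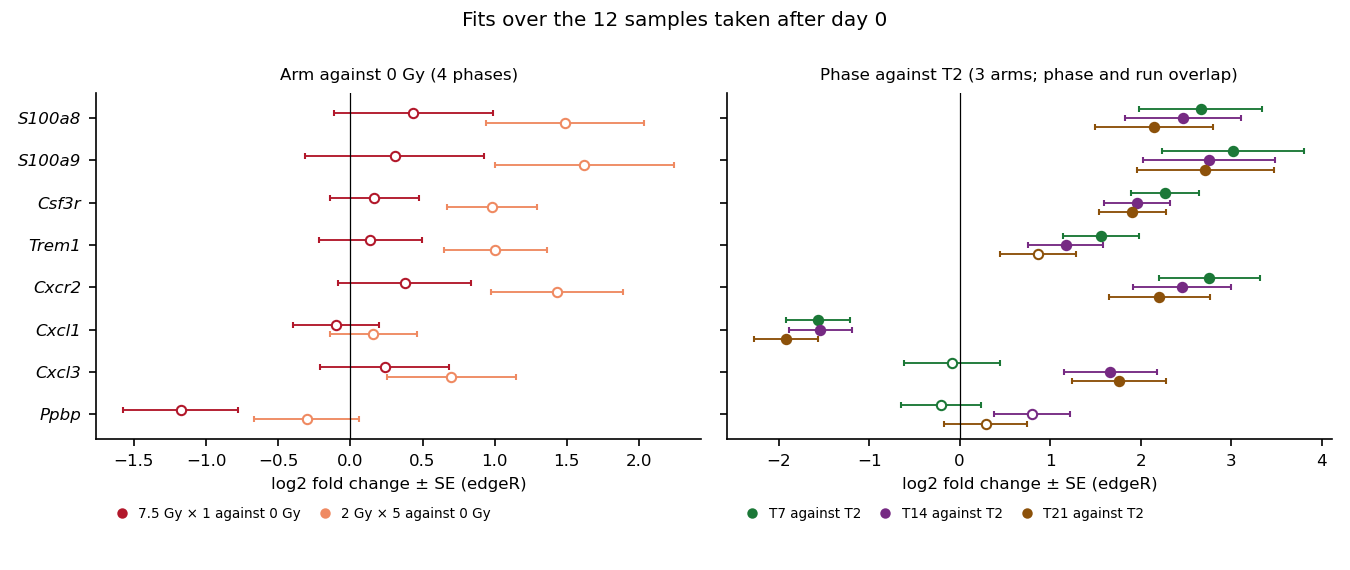
Log2 fold change of each of the 8 genes with its standard error, from the edgeR model of 12 samples, for the contrasts between arms and between phases, with filled points where the adjusted p was under 0.05. No point is filled between arms, and at T7, T14 and T21 against T2 the neutrophil genes lie above 0 (up to 3.02 for S100a9) and Cxcl1 below it (down to -1.92).

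Ratios of 2 members within a sample do not depend on how samples were scaled. The S100a9 to S100a8 count ratio was 0.605 in the T2 sample of 7.5 Gy × 1 (0.518 to 0.705), the only sample with more counts of S100a8 than of S100a9. It was 1.21 before RT (1.04 to 1.41), 1.42 in the T2 sample of 0 Gy (1.26 to 1.61) and 1.64 to 2.40 in the other 10 samples. Each gene has its own probe, so the ratio compares samples and not the amounts of the 2 transcripts. The Cxcl3 to Cxcl1 ratio was again lowest in the T2 sample of 7.5 Gy × 1, at 0.0140 (0.0108 to 0.0179), against 0.0555 in the T2 sample of 2 Gy × 5 and 0.0459 in that of 0 Gy. At T7 it was 0.155 after 7.5 Gy × 1 and 0.0467 after 2 Gy × 5, against 0.0735 at 0 Gy. At T14 the 3 arms lay close together, with 0.359 after 7.5 Gy × 1 and 0.312 after 2 Gy × 5, against 0.331 at 0 Gy. At T21 they had parted, with 0.544 after 7.5 Gy × 1 (0.466 to 0.634) and 0.750 after 2 Gy × 5 (0.675 to 0.833), against 0.205 at 0 Gy (0.167 to 0.250). Relative to Cxcl1, Cxcl3 was thus higher in every T14 and T21 sample than in any T2 sample, and at T21 higher in both irradiated samples than in the 0 Gy sample.

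Among the receptors, the Trem1 to Csf3r ratio was 0.720 after 7.5 Gy × 1 and 1.24 after 2 Gy × 5 at T2, against 1.04 at 0 Gy, and it was 1.00 before RT. It lay between 0.459 and 0.660 in all 9 samples from T7 on, with no sample of T7, T14 or T21 reaching the level of the PreRT sample. The Cxcr2 to Csf3r ratio lay between 0.0732 in the T2 sample of 7.5 Gy × 1, where Cxcr2 was at background, and 0.291 in the T14 sample of 2 Gy × 5.

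**Figure D5:**
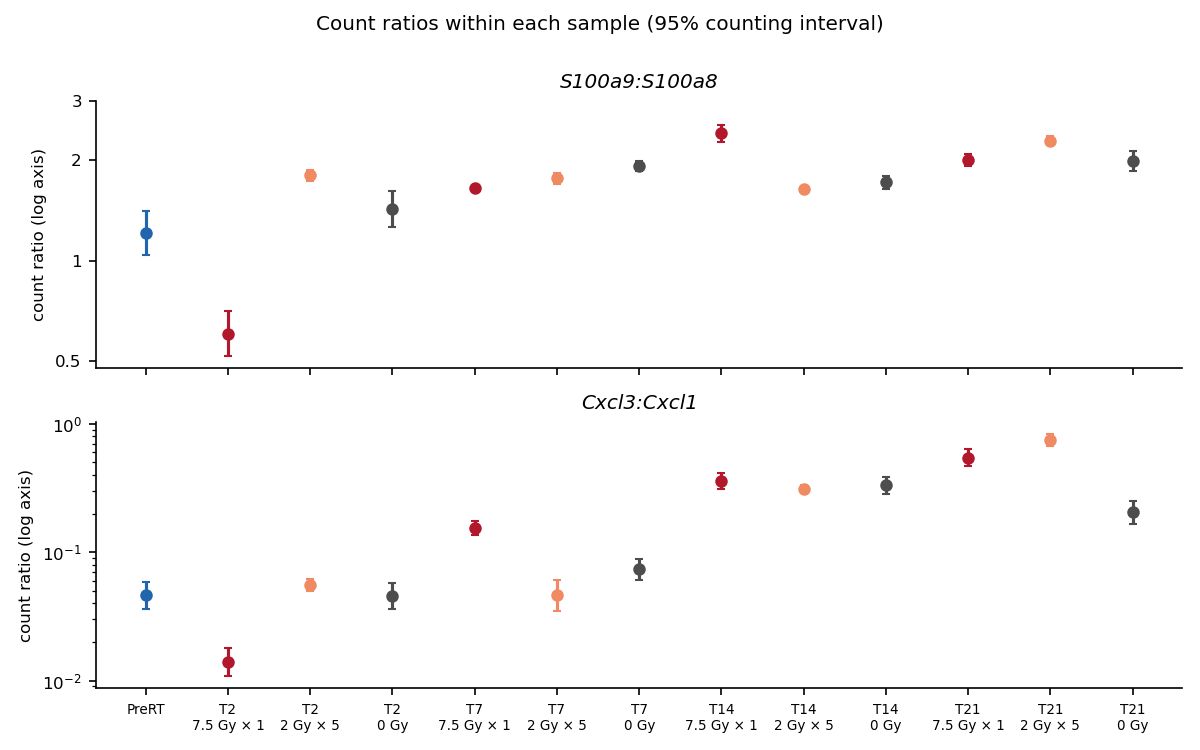
Count ratio within each sample (log axis) of S100a9 to S100a8 and of Cxcl3 to Cxcl1 at PreRT, T2, T7, T14 and T21, 1 point per sample colored by arm, with 95% counting intervals. The T2 sample of 7.5 Gy × 1 is lowest in both (0.605 and 0.0140), and at T21 the Cxcl3 to Cxcl1 ratio is 0.544 and 0.750 after irradiation, against 0.205 at 0 Gy.

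Across the 13 samples the 5 neutrophil genes varied together, with Pearson's r of 0.92 to 0.98 between their log2 levels. Cxcl3 correlated with them at 0.60 to 0.75 and Ppbp at 0.38 to 0.48, whereas Cxcl1 had r of -0.34 to -0.06 with the neutrophil genes and -0.41 with Cxcl3. These values describe samples that differ in phase, arm, run and depth together and carry no test. The gene most alike to S100a8, S100a9 and Csf3r among all others tested was Cd24a, a surface antigen of immature and granulocytic cells (r = 0.96, 0.95 and 0.98). Cxcr2 was most like Cd14, the lipopolysaccharide co-receptor (r = 0.97), and Trem1 was most like Entpd1, the ectonucleotidase CD39 (r = 0.96), followed by the chemokine gene Ccl3 (r = 0.95). Itgam, the integrin CD11b, was among the 5 most alike of S100a8, S100a9, Csf3r and Cxcr2, and Cebpb, a transcription factor of granulocytes, among those of S100a8, S100a9, Csf3r and Cxcl3. Cxcl1 went with other genes, Bax (r = 0.96), a gene of apoptosis, and Csf1, the macrophage growth factor (r = 0.90). For Cxcl3 the values were lower, with C1s1 (r = 0.80) and Il1b (r = 0.76), and for Ppbp they did not exceed 0.70 (Lilra6).

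Other genes of the pathway were read from lists in the same edgeR fits. No gene of any list was called between arms. Of 27 listed neutrophil granule and surface genes, 14 were on the panel and 10 passed the filter on low counts. For 2 Gy × 5 against 0 Gy their median log2 fold change was 0.64, where that of all 415 genes was 0.01. For 7.5 Gy × 1 the median was 0.09, where that of all genes was 0.02. At T7 against T2, 9 of the 10 were called higher (median 1.47), where 27.2% of all genes were called higher and 26% lower. At T14, 5 were called higher (median 0.92), where the shares of all genes were 24.1% and 20.7%. At T21, 1 was called higher and 1 lower, near the shares of all genes (13% and 10.8%). Fcgr4, a receptor for IgG on neutrophils and monocytes, had 0.83 after 7.5 Gy × 1 and 1.13 after 2 Gy × 5, each against 0 Gy (adjusted p = 0.161 and 0.0550 by edgeR). Ptafr, the receptor for platelet-activating factor, had 0.44 and 0.87 in these contrasts, and Clec5a, a DAP12-coupled lectin of myeloid cells, -0.49 and 0.09.

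Of the partners of the chemokine axis, Cxcr4, which retains neutrophils in the marrow, rose by 1.51 at T7 and 1.03 at T14 against T2. Cxcl12, its stromal ligand, fell by 2.12 at T7 and 1.91 at T21, but was at background in 6 of 13 samples. Among 9 granulopoiesis and IL-17 genes tested, Il17ra rose by 1.11 and Il6 fell by 1.61 at T7 (27.2% of all genes called higher, 26% lower). At T21 (13% and 10.8%), Il1b (1.58), Il23a (1.32, at background in 7 of 13 samples) and Cebpb (1.01) rose and Csf1 fell by 1.5. Il17a, Il17f and Il23r, the cytokine and receptor genes upstream of G-CSF in that axis, were at background in all 13 samples. In the adhesion list of 8 tested genes, 4 were called higher and 2 lower at T7 (27.2% and 26% of all genes). Itgal rose by 1.87 and Itgb2 by 1.38, subunits of the integrin LFA-1, and Sele, the endothelial E-selectin, fell by 2.08.

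Downstream of the members, Cd14, a co-receptor in toll-like receptor 4 signaling to which S100A8 and S100A9 are ligands, rose by 1.02, 1.28 and 1.35 at T7, T14 and T21 against T2. Other genes of that list did not follow it. Tlr4 itself had 0.15, -0.03 and -0.03 at these phases and Cd36 had -0.53, -0.08 and -0.43, with no call. Ly96 had -0.38, -0.53 and -0.94, and was called lower at T21 (adjusted p = 0.0376 by edgeR). Tyrobp, the adaptor DAP12 through which TREM1 signals, rose by 1.59, 1.27 and 0.84, and Card9, a signaling adaptor of myeloid cells, by 1.34, 1.61 and 1.35. The other tested genes of the TREM1 signaling list were not called at every phase. Syk had 1.18, 0.23 and -0.42, with a call at T7 only, and Trem2 had 0.32, 1.17 and 0.72, with a call at T14 only. Of the MDSC mediators, Nos2, the inducible nitric oxide synthase, rose by 1.59, 1.65 and 2.29 at T7, T14 and T21. Ptgs2 (cyclooxygenase-2) and Il10 were called lower at 2 of these phases each. Cd274, which encodes PD-L1, had 1.08 ± 0.26 after 7.5 Gy × 1 and 1.27 ± 0.26 after 2 Gy × 5, each against 0 Gy (adjusted p = 0.0610 and 0.0550 by edgeR), and rose by 0.91 at T7.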

How the data were processed

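RNA of CD45+ cells, isolated magnetically from CT26 tumors, was counted on the nCounter mouse immunology panel in 13 samples, 1 per condition, so p-values measure only the spread between these samples. The authors deposited raw counts per probe (547 endogenous genes, 14 housekeeping genes, 8 negative and 6 positive controls) and a normalized signal per gene. Read from the values, the authors' normalized signal equals the count times 1 factor per sample that sets the geometric mean of the housekeeping genes to 789, with low values raised to a floor, and the deposited series table holds the same values (0 of 7475 differ). Software versions used for that normalization were not given in the sources used here. No column of per-sample values was left unmapped.

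Levels and ratios used the normalized values as deposited (log2, floor 1). A count was at background where it did not exceed the mean plus 2 SD of that sample's negative controls (6.23 to 18.3 counts), and then only a bound was given ("at least"). Ratio intervals are exact 95% Poisson intervals, and shares have Wilson intervals, both for counting error only. Genes with a mean raw count above 13.1 were tested (415 of 547, 132 left out), and all 8 members passed. Accessions gave 549 gene symbols and 12 were unmatched. The main test was the quasi-likelihood test of edgeR 4.0.16 with TMM factors, terms for phase and arm, and Benjamini-Hochberg adjustment over 415 genes (R 4.3.3). PreRT was left out of it, as its only sample has no arm. DESeq2 1.42.0, limma 3.58.1, other scalings, other filters and leaving out samples were alternatives. Scripts were tested on simulated data, and the rest ran in Python 3.11.15 (scipy 1.17.1, pandas 2.3.3, numpy 2.4.6, matplotlib 3.10.9).

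The members and gene lists were chosen with earlier results of these data known. All members are named, and from each pathway list up to 4 tested genes with the largest log2 fold change in either direction for 7.5 Gy × 1 against 0 Gy were eligible, together with any called between arms and the 5 genes with the highest Pearson's r to each member. Cebpb, Csf1, Il23a, Itgal and Sele were named for phase contrasts after their values were seen. 1 eligible gene is not reported here. Lists were described by counts and medians only. Promoter sequences are from RefSeq (GRCm38.p6), where all 8 members matched.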

Additional observations from a re-analysis of the deposited data

Results flagged for a closer look

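For 4 members, the measured ratio of 7.5 Gy × 1 to 0 Gy lay at least 2-fold below 1 at T2 and at least 2-fold above 1 at a later phase. Of the 415 genes tested, 17.1% were at least 2-fold lower at T2. At least 2-fold higher were 22.2% at T7, 11.8% at T14 and 14% at T21. The share of all genes that did both was not counted, so the pattern cannot be called particular to the members. With 1 sample per condition, each difference between phases was not tested, and the phases were measured in different runs. The log2 ratio of S100a9 was 3.53 higher at T21 than at T2. That of Cxcr2 was 3.35 higher at T7 than at T2, but its irradiated T2 count was at background, so its T2 ratio is only a bound (at least 1.82-fold lower) and the size of this difference is not measured. For Trem1 the T21 log2 ratio exceeded that of T2 by 2.69, and for Cxcl3 by 2.45. Under pan-leukocyte scaling the T2 and T21 log2 ratios were -1.30 and 0.54 for S100a9, -0.51 and 0.48 for Trem1 and -0.36 and 0.39 for Cxcl3, and the T2 and T7 log2 ratios of Cxcr2 were -1.09 (measured value) and 0.44, so that no member then passed 2-fold in both directions. At T21 that scale rests partly on background counts, as 3 of its 7 genes were at background in the 0 Gy sample.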

How the results depend on the processing

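No paired analysis was possible because each condition has 1 sample and every replicate number is 1, and the phase term of the model already compares arms within phases. The main limits are the single sample per condition, the run shared by all T2 samples, and counts of Ppbp and Cxcr2 near background. Of 570 alternative fits of single members, 515 kept direction and side of the threshold, 26 lost a call, 2 gained one and 27 changed sign. The single-sample ratios were less steady. Of 800 alternative values of them, 299 lay outside the counting interval of the main ratio and 501 within it. Of 120 alternative counts of members at a 2-fold difference, 25 moved and 95 were the same or close. A term for run could not be fitted for contrasts with T2. The cause of the shifts below was not tested.

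Genes called by edgeR for 7.5 Gy × 1 against 0 Gy numbered 5, against 15 by DESeq2, 0 by limma, 0 with housekeeping factors, 0 with total counts, 0 with a filter on 9 of 13 samples, 2 with a run term, 2 without the T14 sample of 2 Gy × 5 and 0 to 3 leaving out phases. For 2 Gy × 5 against 0 Gy they numbered 0, against 40 by DESeq2, 8 with median-of-ratios factors, 10 without a filter and 0 to 3 leaving out phases. For 7.5 Gy × 1 against 2 Gy × 5 they numbered 0, and DESeq2 called 1. Leaving out arms gave 95 to 202 at T7 against T2 (main 221), 56 to 140 at T14 (main 186) and 43 to 53 at T21 (main 99, or 166 without a filter). At T21 against T14 the 23 calls became 97 with DESeq2, 64 with limma, 56 with housekeeping factors, 12 with total counts, 6 with a run term, 6 without the T14 sample of 2 Gy × 5 and 0 to 21 leaving out arms.

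Members at least 2-fold above 0 Gy numbered 27 over all samples, 16 under total counts and 11 under pan-leukocyte scaling. At T7 after 7.5 Gy × 1, 4 became 1 (median of ratios), 1 (total counts) and 0 (pan-leukocyte), and at T14 after 2 Gy × 5, 7 became 3 and 3 under total and pan-leukocyte scaling. At T21, 6 became 3 and 0 after 7.5 Gy × 1 and, under pan-leukocyte scaling, 1 after 2 Gy × 5. Of the 7 pan-leukocyte genes, 3 were at background in the T21 sample of 0 Gy and 1 in each of the T7 and T14 samples of 0 Gy. At T2 after 7.5 Gy × 1, pan-leukocyte scaling gave 1 higher instead of 0 and 3 lower instead of 5, as did a pseudocount of 10 for the lower ones (3), and at T7 after 2 Gy × 5 background subtraction gave 1 instead of 0. Against PreRT, the T2 sample of 7.5 Gy × 1 had 1 higher under median of ratios and 1 under pan-leukocyte scaling instead of 0, and 0 (pan-leukocyte) or 1 (pseudocount) lower instead of 3. The T2 sample of 0 Gy had 1 (median of ratios), 1 (total), 2 (pan-leukocyte) and 1 (background subtracted) instead of 0, and the T21 sample of 0 Gy had 5, 5 and 7 under the 3 scalings instead of 2.

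Signs of uncalled member estimates changed as follows. For 7.5 Gy × 1 against 0 Gy, leaving out phases gave S100a8 -0.036 (without T7) to 0.82, S100a9 -0.15 (without T7) to 0.70, with -0.13 without T21, Csf3r -0.054 (without T21) to 0.38, Trem1 -0.17 (without T21) to 0.44, Cxcr2 -0.042 (without T7) to 0.68 and Cxcl1 -0.36 to 0.054 (without T7). Total counts gave -0.011 for Csf3r and -0.035 for Trem1, and Cxcl1 had 0.12 with limma and 0.13 with housekeeping factors. For 2 Gy × 5 against 0 Gy, Cxcl1 had -0.010 with total counts, -0.15 with a run term or without the T14 sample of 2 Gy × 5, and -0.050 (without T14) to 0.46 leaving out phases, and Ppbp 0.020 with limma, 0.015 with housekeeping factors and -0.62 to 0.0041 (without T2) leaving out phases. For 7.5 Gy × 1 against 2 Gy × 5, Cxcl1 had 0.032 with a run term and 0.032 without that sample. At T7 against T2, Cxcl3 had 0.51 with limma, 0.72 with housekeeping factors and -0.92 to 0.71 (without 2 Gy × 5) leaving out arms, and Ppbp 0.59, 0.55 and -0.45 to 0.35 (without 0 Gy). At T21 against T2, Ppbp had -0.0037 without a filter.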
